A study of Mus musculus with 11 samples.

Results

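The miR-200 family is a set of microRNAs known for holding epithelial cells in their epithelial state. It was detected here in libraries of sorted CD8+ T cells, and which cells made it was not tested. Its 7 mature arms that the study's table lists with counts in every library (mmu-miR-200a-3p, mmu-miR-200a-5p, mmu-miR-200b-3p, mmu-miR-200b-5p, mmu-miR-429-3p, mmu-miR-200c-3p and mmu-miR-141-3p, written below without the prefix mmu for mouse) were chosen by name, out of 2008 distinct rows. The choice was made with earlier results of these data known, so counts of members set beside shares of all rows are descriptions. All 7 passed the filter on low counts, as did 545 rows in all. The libraries came from mouse spleen and measured small RNA in 4 groups of CD4- CD8+ CD49dlo GFP+ T cells. These were Dirty_VM (stamped virtual memory cells, CD44hi, from mice called dirty, 3 libraries), Dirty_TN (stamped true naive cells, CD44lo, from the same kind of mice, 3 libraries), Clean_VM (3 libraries) and Clean_TN (2 libraries, replicates 2 and 3). Virtual memory cells are CD8+ T cells that carry a memory phenotype without having met foreign antigen. The labels give no genotype, strain or age of the mice, and define neither dirty nor stamped nor the source of GFP, which all groups carried. Nothing says that replicates came from separate animals, so p-values measure the spread between these libraries, which may be technical.

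MicroRNAs are cut as short RNAs from hairpin precursors and guide repression of mRNAs that pair with their seed, the bases near the 5′ end. In epithelial cells the miR-200 family represses Zeb1 and Zeb2, transcription factors of the epithelial to mesenchymal transition, and these factors repress the miR-200 genes in turn. In mouse CD8+ T cells Zeb2 is known for supporting terminal effector cells, Zeb1 for supporting memory cells, and the miR-200 family has been placed in the same circuit. Neither factor's mRNA was measured in these libraries.

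The family has 2 genomic clusters. Mir200b, Mir200a and Mir429 lie on the minus strand of chr4:156053905-156055750 (GRCm38.p6, the build of mm10), a stretch of 1846 bases inside an intron of Ttll10 and within the noncoding gene Gm13648, where Mir429 overlaps an exon. Mir200c and Mir141 lie on the minus strand of chr6:124717914-124718390, a stretch of 477 bases in an intron of the antisense gene Gm15884, and Mir141 also overlaps an exon of Gm29008. The mature sequences below, credited to RefSeq on GRCm38.p6, are shown because the members split by seed (bases 2 to 8, in capitals) differently from how they split by cluster.
miR-200b-3p: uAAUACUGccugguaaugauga
miR-429-3p: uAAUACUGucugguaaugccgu
miR-200c-3p: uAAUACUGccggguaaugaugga
miR-200a-3p: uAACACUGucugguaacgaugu
miR-141-3p: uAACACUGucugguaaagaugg
miR-200b-5p: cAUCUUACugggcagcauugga
miR-200a-5p: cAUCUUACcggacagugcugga

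The 3p arms carry 2 seeds that differ at 1 base. Counted from the 5′ end, miR-200a-3p differs from miR-429-3p inside the seed by C4U. Each seed group draws on both clusters: miR-200b-3p and miR-429-3p of chromosome 4 share theirs with miR-200c-3p of chromosome 6, and miR-200a-3p of chromosome 4 shares its seed with miR-141-3p of chromosome 6. The 5p arms of miR-200a and miR-200b share another seed. In the RefSeq table no mature mouse miRNA outside the family had any of these 3 seeds. Over the first 22 bases miR-200b-3p and miR-200c-3p differ at 2 positions, U11G and A22G with the base of miR-200b-3p first, and miR-200a-3p and miR-141-3p at C17A and U22G.

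Such likeness can split reads between members. Each of the 5 3p arms held fractions of 0.5 in some libraries, and 10 of the 11 libraries held such a fraction in at least 1 of these arms. The sum of the 5 was a whole number (within 1e-06) in all 11. Within each seed group the sum was whole in 10 libraries. The values are estimated counts, and how the authors' counting made the fractions is not given in the sources used here. Any reads divided among near-identical 3p arms would leave the levels of those arms uncertain. Both 5p arms had whole counts in every library.

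Libraries held between 2614396 and 16312004 counts, with 5 of them shallow (4116012 or less) and 6 deep (9399645 or more). Both depth classes held libraries of all 4 groups. Levels are given as CPM, counts per 1000000 on TMM-scaled totals. The floor that 0 counts leave, taken as 3 counts, lay between 0.18 and 1.23 CPM by library and covers counting error only. The lymphocyte miRNA miR-150-5p stood between 66250 and 134300 CPM in all libraries. The hepatocyte miRNA miR-122-5p stood between 851 and 2738 CPM, and the family's miR-200b-3p between 846 and 1619.

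miR-200b-3p was the most abundant member in every library, and the family as a whole held a small share of each library. It took 69.1% ± 4.21 (SD, n = 11) of the family's counts, and miR-200a-3p took 18.9% ± 3.72. miR-200c-3p took 8.76% ± 1.15, miR-429-3p 1.63% ± 0.395 and miR-200b-5p 0.933% ± 0.161. The rarest were miR-200a-5p with 0.446% ± 0.204 and miR-141-3p with 0.32% ± 0.133. All of these arms are 22 or 23 bases long. By mean level over the 11 libraries miR-200b-3p ranked 54 among the 545 tested rows with 1167 CPM, miR-200a-3p 100, miR-200c-3p 127, and miR-141-3p 312 with 5.16 CPM. The family summed to between 0.125% and 0.228% of all counts, with a median of 0.161%.

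The summed family level was highest in Dirty_VM and lowest in Clean_TN. It was 2075 ± 253 CPM in Dirty_VM and 1544 ± 253 in Dirty_TN, and 1702 ± 185 in Clean_VM and 1288 ± 61.7 in Clean_TN (SD, n = 3, and n = 2 for Clean_TN). In that order of levels, Dirty_VM, Clean_VM, Dirty_TN and Clean_TN, each group's libraries overlapped those of the next. Within clean mice the subsets did not overlap, with 1519 to 1888 CPM in Clean_VM and 1245 to 1332 in Clean_TN. Within dirty mice they did, with 1783 to 2232 CPM in Dirty_VM and 1301 to 1805 in Dirty_TN. The chromosome 4 cluster made up between 89% and 92.4% of the family's counts in each library. Its 5 arms summed to 1912 ± 229 CPM in Dirty_VM and 1394 ± 240 in Dirty_TN, and to 1550 ± 190 in Clean_VM and 1159 ± 37.1 in Clean_TN. The 2 arms of chromosome 6 summed to 163 ± 24.5 CPM in Dirty_VM and 150 ± 16.3 in Dirty_TN, and to 152 ± 5.12 in Clean_VM and 129 ± 24.6 in Clean_TN. In bulk libraries such as these, fewer cells that hold a miRNA and less of it per cell cannot be told apart.

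**Figure D1:**
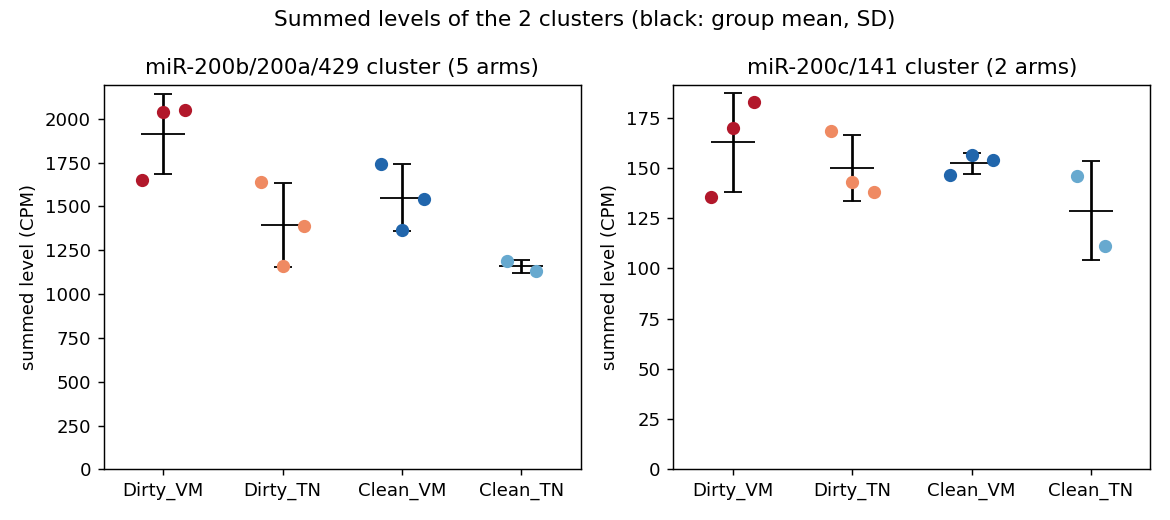
Summed levels of the 5 measured arms of the chromosome 4 cluster (left) and of the 2 of the chromosome 6 cluster (right), in CPM on a linear axis from 0, with 1 point per library and the group mean and SD in black. Chromosome 4 libraries lay between 1648 and 2050 CPM in Dirty_VM, against 1158 to 1637 in Dirty_TN. In clean mice they lay between 1363 and 1742 CPM in Clean_VM, against 1133 to 1186 in Clean_TN. The chromosome 6 libraries of Dirty_VM and Dirty_TN overlapped. Those of clean mice did not, with 146.5 to 156.3 CPM in Clean_VM and 111.4 to 146.2 in Clean_TN.

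The comparison of VM with TN cells asked whether the family differs between the subsets. Averaged over dirty and clean mice, 4 of the 7 members rose in VM cells and none fell, and these 4 were all arms of the chromosome 4 cluster. They were miR-200a-3p, miR-200a-5p, miR-200b-5p and miR-429-3p. At the same threshold, 23.7% of all tested rows were called, 11.4% higher and 12.3% lower. The median log2 change of the 7 members was 0.52, beside 0.09 over all tested rows. The most abundant member, miR-200b-3p, did not pass, nor did either arm of chromosome 6. Whether the changes of the 2 clusters differ from each other was not tested. Tests were edgeR's quasi-likelihood test over all 11 libraries with Benjamini-Hochberg adjustment over the 545 rows.

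miR-200a-3p, a guide arm of the chromosome 4 cluster, separated the subsets in both environments. It had 400, 362 and 448 CPM in Dirty_VM replicates 1, 2 and 3, against 232, 233 and 235 in Dirty_TN. In clean mice it had 326, 351 and 431 CPM in Clean_VM and 222 and 249 in Clean_TN. Every VM library lay above every TN library, and the TN libraries lay close together. Its log2 change was 0.72 ± 0.13 (SE), which is 1.65-fold, with an edgeR adjusted p of 0.00166. In dirty mice alone it was 0.79 ± 0.18 (edgeR adjusted p = 0.00911) and in clean mice alone 0.65 ± 0.20 (edgeR adjusted p = 0.0394). The call in clean mice ended under 18 of 21 alternatives, at log2 changes of 0.33 or more, and was kept by DESeq2, by limma-voom and without Clean_VM replicate 1. In dirty mice leaving out Dirty_TN replicate 2 (edgeR adjusted p = 0.0545) or Dirty_VM replicate 1 (0.0682) ended it.

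miR-200a-5p, the passenger arm of the same hairpin, was low in all groups and differed most between clean VM and clean TN cells. It had 7.74, 6.16 and 6.43 CPM in Dirty_VM, against 7.71, 6.35 and 4.06 in Dirty_TN, from 15 to 107 counts per library. In clean mice it had 10.7, 12.2 and 13.5 CPM in Clean_VM and 2.91 and 4.22 in Clean_TN, from 14 to 135 counts. The dirty groups overlapped and the clean groups did not. Its log2 change was 1.81 ± 0.37 in clean mice, 3.5-fold (edgeR adjusted p = 0.00598), and 0.17 ± 0.31 in dirty mice (edgeR adjusted p = 0.792). The averaged change was 0.99 ± 0.24 (edgeR adjusted p = 0.00945). The difference between the environments, tested as an interaction, was -1.63 ± 0.48 and did not pass (edgeR adjusted p = 0.117), except without Dirty_TN replicate 3 (-1.69, edgeR adjusted p = 0.0273). Without Clean_TN replicate 2, the change in clean mice was 1.47 (edgeR adjusted p = 0.119) and the averaged one 0.85 (0.0738).

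miR-200b-5p, the passenger arm of miR-200b, was highest in Dirty_VM. It had 19.6, 24.6 and 26.6 CPM in Dirty_VM and 17.4, 12.7 and 12.4 in Dirty_TN, and 15.8, 11.7 and 16.9 in Clean_VM and 10.7 and 8.73 in Clean_TN. VM and TN libraries did not overlap within either environment. The averaged log2 change was 0.67 ± 0.19 (edgeR adjusted p = 0.0222), with 0.74 ± 0.25 in dirty mice (0.0807) and 0.60 ± 0.29 in clean mice (0.178). Leaving out Clean_TN replicate 3 (edgeR adjusted p = 0.147), Clean_VM replicate 3 (0.0719) or Dirty_VM replicate 3 (0.066) ended the averaged call, as did keeping rows with as few as 1 count (0.0711).

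miR-429-3p, the guide arm of the hairpin nearest the cluster's 3′ end, had the weakest of the 4 calls. It had 43.7, 26.7 and 33.5 CPM in Dirty_VM and 18.1, 22.2 and 22.6 in Dirty_TN, and 29, 27.5 and 27.5 in Clean_VM and 19.7 and 25.9 in Clean_TN. No VM library lay below a TN library, the lowest VM value being 26.7 and the highest TN value 25.9 CPM. Its averaged log2 change was 0.52 ± 0.18 (edgeR adjusted p = 0.0482). That call ended under 19 of 22 alternatives, with log2 changes between 0.30 and 0.56, and leaving out any 1 of the 11 libraries was enough to end it.

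miR-200b-3p, the main guide arm, overlapped between the subsets in dirty mice. It had 1177, 1619 and 1536 CPM in Dirty_VM and 1361, 884 and 1114 in Dirty_TN, and 1360, 960 and 1055 in Clean_VM and 931 and 846 in Clean_TN. Its averaged log2 change of 0.35 ± 0.16 did not pass (edgeR adjusted p = 0.134, unadjusted p = 0.0439), and it passed under none of the 22 alternatives. Its clean groups did not overlap. miR-200c-3p, the seed partner on chromosome 6, had group means between 124 and 158 CPM. It had 131, 166 and 177 CPM in Dirty_VM and 165, 135 and 134 in Dirty_TN, and 140.6, 150.6 and 147 in Clean_VM and 140.4 and 108 in Clean_TN, with an averaged log2 change of 0.18 ± 0.14 (edgeR adjusted p = 0.39). Its cluster partner miR-141-3p had 4.46, 4.11 and 5.29 CPM in Dirty_VM and 3.08, 8.08 and 3.58 in Dirty_TN. In clean mice miR-141-3p had 5.9, 5.66 and 6.82 CPM in Clean_VM and 5.83 and 3.92 in Clean_TN. Its averaged log2 change was 0.14 ± 0.29 (edgeR adjusted p = 0.749) and rests on as few as 9.5 estimated counts in a library.

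**Figure D2:**
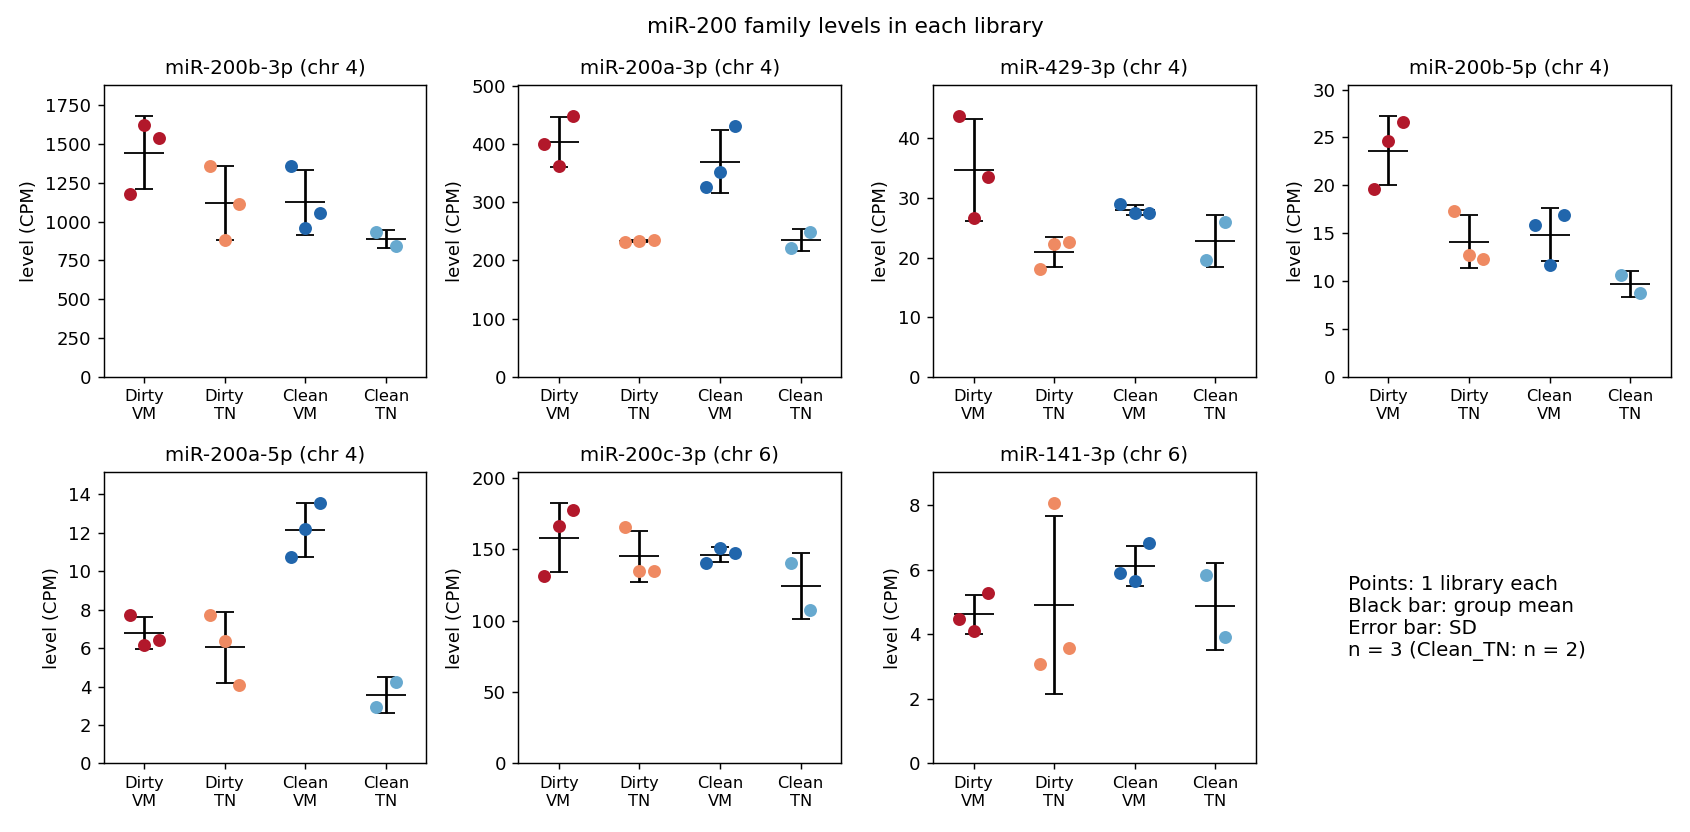
Level of each member in CPM (linear axes from 0) in Dirty_VM, Dirty_TN, Clean_VM and Clean_TN, with 1 point per library and the group mean and SD in black. The points of miR-200a-3p form 2 separate bands, 326 to 448 CPM in VM and 222 to 249 in TN libraries, and miR-200a-5p is highest in Clean_VM at 10.7 to 13.5 CPM.

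Within single environments fewer members passed. In dirty mice 1 of 7 rose, miR-200a-3p, where 6.24% of all tested rows were higher. In clean mice 2 rose, miR-200a-3p and miR-200a-5p, where 9.72% were higher. All 7 log2 changes lay above 0 in clean mice and 6 of 7 in dirty mice. The exception was miR-141-3p in dirty mice at -0.02 ± 0.40, which lay above 0 under scaling to library totals. Without Clean_TN replicate 3 the changes in clean mice were -0.069 for miR-200c-3p and -0.047 for miR-141-3p. Over all tested rows the median change also lay above 0, at 0.08 in clean and 0.02 in dirty mice. Libraries did not overlap, with VM higher, for 6 members in clean mice and 3 in dirty mice, beside 28.3% and 16.9% of all rows. No member was lower without overlap in either environment, beside 24.4% of all rows in clean and 13.6% in dirty mice. VM libraries lay above TN libraries in both environments for 3 members, miR-200a-3p, miR-200b-5p and miR-429-3p, beside 7.52% of all rows, and no member was lower in both that way, beside 9.36% of all rows. Scaling by library totals gave all rows a median log2 change of -0.13 in clean mice, against 0.08 with TMM. The members' changes in clean mice stayed above 0 under that scaling, and miR-200a-3p had 0.44 there (edgeR adjusted p = 0.198).

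**Figure D3:**
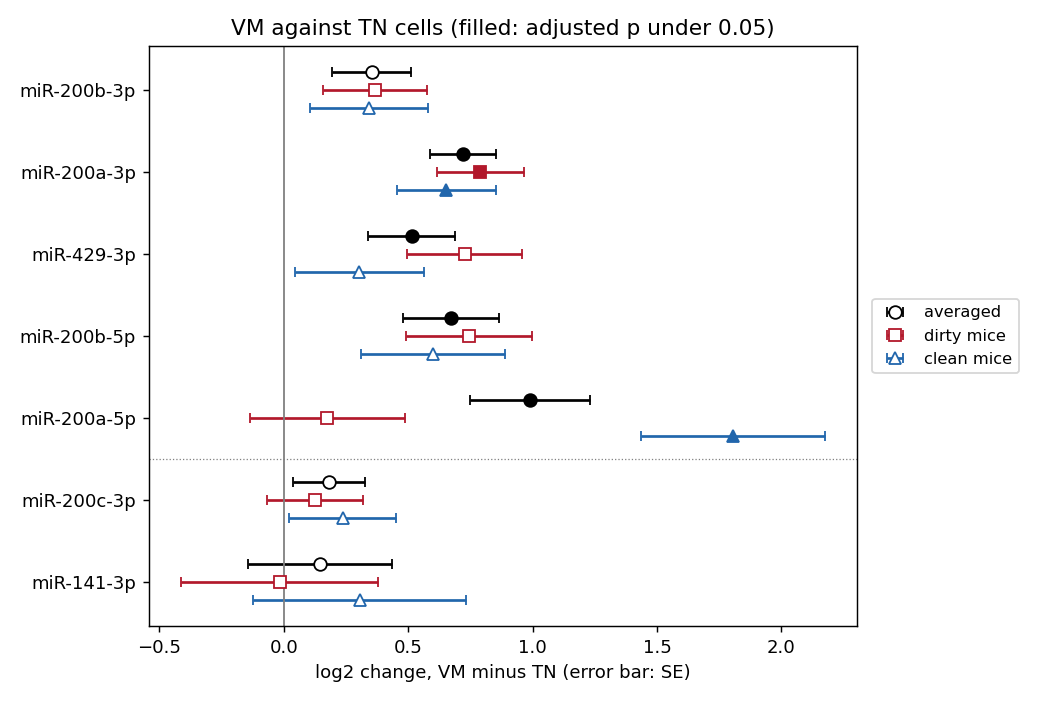
Log2 change of each member, VM minus TN, with SE, averaged over the environments (circles), in dirty mice (squares) and in clean mice (triangles), where filled symbols passed an adjusted p of 0.05 and the dotted line parts chromosome 4 arms from chromosome 6 arms. miR-200a-5p had 1.81 in clean and 0.17 in dirty mice, and the averaged changes of miR-200c-3p and miR-141-3p lay at 0.18 and 0.14.

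The depth classes were compared separately because totals differed widely. In deep libraries alone the averaged log2 change of miR-200a-3p was 0.83 ± 0.29 (edgeR adjusted p = 0.0854) and in shallow libraries alone 0.43 ± 0.29 (0.415), fits with 2 and 1 residual degrees of freedom. miR-200a-5p had 1.10 in deep and 0.62 in shallow libraries, miR-200b-5p 0.59 in deep and 0.70 in shallow ones, and miR-429-3p 0.54 in deep and 0.30 in shallow ones, none of which passed. All 4 kept their sign in both classes and passed with depth class as a term in the model (edgeR adjusted p between 0.002 and 0.043). miR-200b-3p had 0.17 in deep and 0.55 in shallow libraries.

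The comparison of dirty with clean mice asked whether the environment shifts the family within a subset. No member passed in VM or in TN cells by edgeR, and none of the 545 rows did (0% in each). At an unadjusted p under 0.05, 2 members and 81 rows passed in VM cells, and 0 members and 38 rows in TN cells. DESeq2 called 22 rows in VM and 3 in TN cells and limma-voom 1 and 0, none of them members. In VM cells the 2 members were arms of neighbouring hairpins with opposite signs. miR-200a-5p had a log2 change of -0.85 ± 0.31 (edgeR adjusted p = 0.209) and miR-200b-5p one of 0.68 ± 0.25 (0.209), and in both the Dirty_VM libraries did not overlap those of Clean_VM. miR-141-3p also lay lower without overlap, at -0.39 ± 0.39 (edgeR adjusted p = 0.716). Such separation, higher or lower, was seen in VM cells for 12.1% and 8.99% of all rows.

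In TN cells miR-200a-5p had a log2 change of 0.78 ± 0.37 between dirty and clean mice (edgeR adjusted p = 0.559) and miR-200b-5p one of 0.54 ± 0.29 (0.614). miR-200b-5p was the 1 member whose Dirty_TN and Clean_TN libraries did not overlap, beside 14.3% of all rows that were higher without overlap. miR-200b-3p had a log2 change of 0.36 ± 0.21 in VM and 0.34 ± 0.24 in TN cells, neither past the threshold (edgeR adjusted p = 0.446 and 0.681). miR-200a-3p had log2 changes between dirty and clean mice of 0.13 ± 0.17 in VM and -0.01 ± 0.20 in TN cells (edgeR adjusted p = 0.793 and 0.976). The interaction passed for no member by edgeR, DESeq2 or limma-voom, with 1 of 7 at an unadjusted p under 0.05, miR-200a-5p. Over all rows edgeR called 0 in the interaction (93 at an unadjusted p under 0.05), DESeq2 41 and limma-voom 0.

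**Figure D4:**
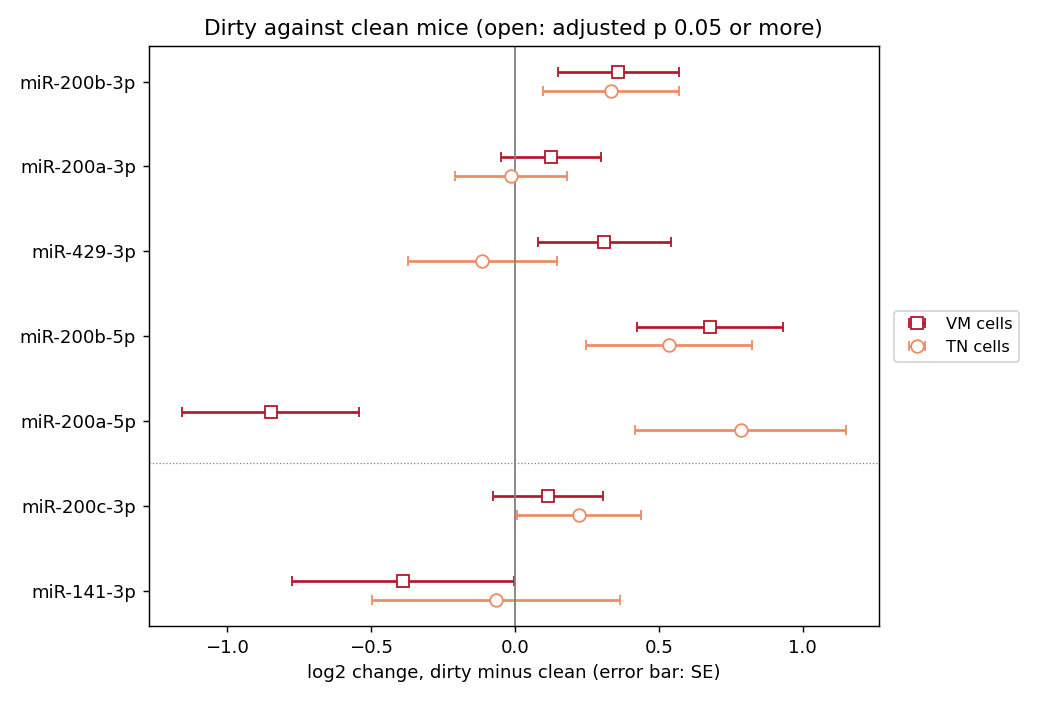
Log2 change of each member, dirty minus clean, with SE, in VM cells (squares) and in TN cells (circles), all open because no adjusted p was under 0.05. miR-200a-5p lies at -0.85 in VM and 0.78 in TN cells, and the other members lie between -0.39 and 0.68.

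The arms of 1 hairpin come from the same precursor, so their ratio was set beside their levels. miR-200a gave 51.7, 58.8 and 69.6 counts of its 3p arm per count of its 5p arm in Dirty_VM, taken in rising order, and 30.1, 36.7 and 57.8 in Dirty_TN. In clean mice the miR-200a ratio was 28.8, 30.4 and 31.8 in Clean_VM and 59 and 76.2 in Clean_TN. VM lay below TN without overlap in clean mice, and in dirty mice the 2 groups overlapped with the higher mean in VM. For miR-200b the ratio averaged 61.1 ± 4.1 in Dirty_VM and 79.4 ± 10.3 in Dirty_TN, and 76.7 ± 12.7 in Clean_VM and 92.1 ± 6.68 in Clean_TN (SD, n = 3, and n = 2 for Clean_TN). The miR-200b ratio was thus lower on average in VM in both environments, and its Dirty_VM libraries lay below those of Dirty_TN. Its Clean_VM libraries, at 62.2 to 85.9, also lay below those of Clean_TN, at 87.3 and 96.8. These ratios are descriptions with no test, and those of miR-200a rest on as few as 14 counts of the 5p arm.

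**Figure D5:**
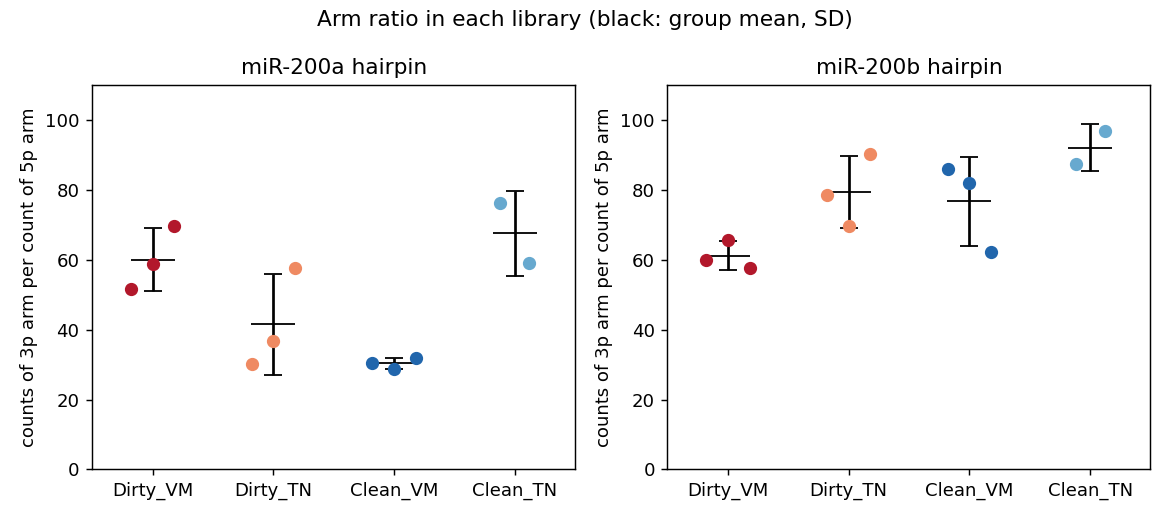
Counts of the 3p arm per count of the 5p arm for the miR-200a (left) and miR-200b (right) hairpins, on linear axes from 0, with 1 point per library and the group mean and SD in black. For miR-200a the Clean_VM libraries sit together at 28.8 to 31.8, below the Clean_TN libraries at 59 and 76.2.

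Ratios between guide arms were set out in the same way, with no test. miR-200b-3p had 3.61 ± 0.777 counts per count of miR-200a-3p in Dirty_VM and 4.8 ± 1.03 in Dirty_TN, and 3.12 ± 0.923 in Clean_VM and 3.79 ± 0.562 in Clean_TN, with overlapping libraries in both pairs. Across clusters, miR-200b-3p had 9.14 ± 0.559 counts per count of miR-200c-3p in Dirty_VM and 7.69 ± 0.985 in Dirty_TN, which did not overlap, and 7.74 ± 1.73 in Clean_VM and 7.24 ± 0.875 in Clean_TN, which did. Arms with the seed AAUACUG held between 72.4% and 85.6% of the family's counts. By seed group, the AACACUG arms summed to 408 ± 43.3 CPM in Dirty_VM and 238 ± 2.71 in Dirty_TN, and to 376 ± 55.3 in Clean_VM and 240 ± 17.7 in Clean_TN. The AAUACUG arms summed to 1637 ± 249 CPM in Dirty_VM and 1286 ± 252 in Dirty_TN, and to 1299 ± 205 in Clean_VM and 1035 ± 79 in Clean_TN. The AACACUG sums are nearly all miR-200a-3p.

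Across the 11 libraries, which differ in depth and group, log2 levels of members of the chromosome 4 cluster correlated with Pearson's r between 0.23 and 0.89 over 10 pairs (median 0.47). The 10 pairs between clusters had r between -0.35 and 0.76 (median 0.27), and miR-200c-3p with miR-141-3p had -0.01. Outside the family, the 5 tested rows whose levels followed the members' mean pattern most closely over the 11 libraries were miR-504-5p (r = 0.94), miR-149-5p (0.92), miR-1843a-5p (0.92), miR-130b-5p (0.92) and miR-139-5p (0.92). The median r of all other rows was 0.08, and these are descriptions of libraries that share groups and depth.

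None of the other epithelial miRNAs tested passed. In a list of 9 (the unlisted arms miR-200c-5p, miR-141-5p and miR-429-5p, with miR-203-3p, miR-205-5p, miR-192-5p, miR-194-5p, miR-215-5p and miR-375-3p), 6 were tested, and 0 passed between VM and TN cells averaged, in dirty or in clean mice, where 23.7%, 12.1% and 17.4% of all tested rows did. With 6 members, a count of 0 is near those shares. Their median averaged log2 change was -0.23, with 2 of 6 above 0. miR-203-3p, an epidermal miRNA, lay between 848 and 1576 CPM over all libraries with a log2 change of 0.06 ± 0.19, and miR-192-5p, abundant in gut and liver, between 630 and 1157 CPM with -0.35 ± 0.14 (edgeR adjusted p = 0.82 and 0.108). miR-205-5p, which also represses Zeb factors and marks squamous epithelium, ranged from 0.257 to 21.2 CPM, and the endocrine miR-375-3p from 1.29 to 10.1 CPM. The list summed to between 1769 and 2430 CPM in Dirty_VM and 2110 to 2743 in Dirty_TN, and to between 1697 and 2248 in Clean_VM and 1897 to 1938 in Clean_TN. Of 8 miRNAs listed as repressors of Zeb, Snai1 or related factors, which share 3 with that list, 7 were tested. On average 1 rose in VM cells, miR-30a-5p with 1.52 ± 0.27 (edgeR adjusted p = 0.00127), beside 11.4% of all tested rows. With 7 members, a count of 1 is near that share.

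Some miRNAs that mark other cell types were also higher in VM libraries, beside 11.4% of all tested rows that were higher on average. In the erythroid list 4 of 5 were tested, and the near-identical pair miR-486a-5p and miR-486b-5p rose in VM cells on average. The log2 change of the defining miR-451a was 0.27 ± 0.38 (edgeR adjusted p = 0.638). That of miR-144-5p, at 0 to 2.38 CPM, was 1.66 ± 0.76 (edgeR adjusted p = 0.14). miR-144-3p was too low to test, at 0 to 0.501 CPM. The erythroid list summed to between 122 and 200 CPM in Dirty_VM and 69.2 to 148 in Dirty_TN, and to between 129 and 261 in Clean_VM and 59.9 to 76.8 in Clean_TN. In the endothelial list 1 of 2 rose, miR-126a-3p, and the list summed to between 29.6 and 53 CPM in Dirty_VM and 15.3 to 29.7 in Dirty_TN, and to between 21.7 and 47.7 in Clean_VM and 18.4 to 19.3 in Clean_TN. In the stromal list 1 of 4 tested rose, miR-143-3p, and its sum lay between 75.6 and 109 CPM in Dirty_VM and 48.7 and 72.2 in Dirty_TN, and between 62.8 and 105 in Clean_VM and 39.8 and 49.5 in Clean_TN. In the hepatocyte and muscle list 1 of 4 rose, miR-122-5p, close to the threshold at 0.76 ± 0.26 (edgeR adjusted p = 0.0482). Of the 4 averaged changes in that list 3 lay above 0, and miR-1a-3p had -0.48 ± 0.31. The list summed to 1248 to 2489 CPM in Dirty_VM and 928 to 1835 in Dirty_TN. In clean mice it summed to 1224 to 2755 CPM in Clean_VM and 860 to 1088 in Clean_TN. The myeloid list, miR-223-3p and miR-223-5p, stayed at 3.61 CPM or less in every library, and miR-223-3p did not pass. Within single environments miR-126a-3p and miR-122-5p passed in neither, and miR-143-3p and the miR-486 pair passed in clean mice and not in dirty mice. The share of all tested rows that were higher was 9.72% in clean and 6.24% in dirty mice. For none of these miRNAs was the difference between environments past the threshold. The part of these miRNAs in the members' changes was not tested. Of 7 lymphocyte miRNAs, miR-155-5p and miR-146a-5p rose in VM cells on average, and miR-142a-5p and miR-181a-5p fell. Of all tested rows, 12.3% were lower on average.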

How the data were processed

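The authors deposited 1 table of estimated counts (expected counts) per mature miRNA and hairpin, with 1 column per library. Per the submitters' processing notes the build was mm10, and which aligner, counter and annotation made the table is not given in the sources used here. Per the labels' protocols, 10000 sorted cells of over 95% purity went into RNA extraction, and 60 to 100 ng of RNA into NEBNext small RNA libraries with inserts of 18 to 35 bp. No replicate 1 of Clean_TN was among the libraries used here, so none was analysed.

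Of 2128 deposited rows, 120 repeats with identical names and values were dropped. Estimated counts were rounded, and filterByExpr in edgeR 4.0.16 kept 545 rows with 99.99% of the counts. One quasi-likelihood model (robust, TMM, 1 mean per group) was fitted over the 11 libraries, with two-sided tests, Benjamini-Hochberg adjustment over the 545 rows and a threshold of 0.05. The SE is the absolute log2 change over the square root of F. CPM values use TMM-scaled totals. Alternatives used DESeq2 1.42.0, limma 3.58.1 (voom), other scalings, filters, samples, summed rows, a depth class (split at 6000000 counts), a replicate block, and each library left out. The members and lists were chosen with earlier results of these data known. All 7 members are named, with the 5 rows most like their mean centred log2 pattern (prior count 2) and list members that passed.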

Additional observations from a re-analysis of the deposited data

Results flagged for a closer look

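An arm outside the 7 members had a signal: miR-141-5p, the passenger arm of miR-141, had a highest count of 5 in 1 library, replicate 3 of Clean_VM, and 0 in the other 10. It was pointed out because 5 counts exceed the 3 counts taken as the floor, and it was too low to be tested. miR-200c-5p and miR-429-5p had 0 counts in all 11 libraries.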

How the results depend on the processing

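The 4 members called on average over the environments were also 4 under DESeq2, limma-voom and the depth term. They were 3 under DESeq2 size factors, library totals, the 10 CPM filter and summed rows. They were 2 with no filter beyond 1 count, 2 with the replicate block and 2 to 3 when each library was left out. In clean mice 2 were called, against 1 under DESeq2 size factors, library totals, no filter, the 10 CPM filter, summed rows, the replicate block, the depth term and the fit of 2 groups, and 0 to 2 leaving out each library. In dirty mice 1 was called, against 2 under DESeq2 and the 10 CPM filter and 0 to 2 leaving out each library. For the interaction 0 members were called, and 0 to 1 leaving out each library. For dirty against clean, 0 members were called under every alternative run, in VM and in TN cells. The summed family level of Clean_TN was 1422 CPM under library totals, against 1288. The cause of these shifts was not tested. Of 15 same-numbered pairs of libraries, 6 had deviations that correlated above 0.1 (range -0.55 to 0.42). VM with TN pairs of the same environment had 0.254 and -0.263 in clean mice and -0.463, 0.238 and 0.416 in dirty mice. Deviations from means of so few libraries oppose each other within a group, so they cannot decide whether the numbers pair libraries. The main model took no pairing, and the replicate block joined equal numbers across environments. With the replicate block the averaged change of miR-200b-5p was 0.66 (edgeR adjusted p = 0.0538) and that of miR-429-3p 0.49 (0.108), and with no filter they were 0.65 (0.0711) and 0.48 (0.174), so these were the members lost. With the block, 106 rows were called on average against 129, 56 against 95 in clean mice and 53 against 66 in dirty mice.

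No called change reversed. Among 35 uncalled changes 37 of 721 values did, all with adjusted p of 0.529 or more. They are given here by member, with the lowest and highest value leaving out 1 library in turn. The averaged change of miR-141-3p was -0.276 in shallow libraries and -0.06 to 0.378 leaving out a library. Its change was -0.047 to 0.583 in clean mice, and in dirty mice -0.28 to 0.448, with 0.299 by voom, 0.043 with totals, 0.051 with the replicate block and 0.003 with the depth term. For dirty against clean TN cells miR-141-3p had 0.039 with the block and -0.653 to 0.209, and for the interaction 0.056 by voom and -0.574 to 0.139. miR-200c-3p had -0.069 to 0.377 in clean mice, for the environment -0.052 to 0.346 in TN and -0.094 to 0.206 in VM cells, and for the interaction 0.185 with totals and -0.243 to 0.162. miR-200a-3p had 0.022 with the block in TN cells, -0.138 to 0.345 in VM cells and -0.055 to 0.419 for the interaction. miR-429-3p had -0.396 to 0.008 in TN and -0.03 to 0.4 in VM cells. miR-200b-3p had -0.128 to 0.257 for the interaction.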
